A study of Mus musculus with 12 samples.

Results

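Aortic banding was compared with sham surgery in mice that all received hispidulin, to describe which heart genes differed with pressure overload while the drug was present. Hispidulin is a natural flavonoid. Aortic banding (AB) ties a ligature around the descending aorta, so that the left ventricle pumps against a raised pressure. The members were the libraries labelled Hispidulin+AB (3 mice) and Hispidulin+Sham (3 mice), which are 6 of the 12 libraries of the series. The other 6 came from mice given DMSO, the solvent, on the same schedule and with the same operations. The mice were male, C57BL/6 by the labels and C57BL/6J by the study's methods, aged 8 weeks at surgery and 12 weeks at harvest by the labels, and the labels name no engineered allele. Hispidulin was injected daily at 20 mg/kg from 1 day ahead of surgery until the hearts were taken 4 weeks after it, so the sham mice of this comparison were drug-treated too and none of the differences below is a difference between drug and solvent. RNA came from left ventricular muscle as a whole, 1 library per mouse. In such tissue, fewer cells of a type and less RNA per cell cannot be told apart.

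A pressure-loaded ventricle is known to return to a fetal pattern of transcripts, with skeletal actin, beta myosin heavy chain and the natriuretic peptides made by ventricular muscle. Stretch-responsive genes of the sarcomere's Z-disc are induced at the same time, fibroblasts lay down collagen and matricellular proteins, and genes for fatty acid burning, the main fuel route of the adult heart, are often lowered. The lists used below follow these groups.

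Expression was given as FPKM, reads per length of transcript and per size of library, so levels of different genes can be set side by side. Depth is unknown because read counts were not used here. Differences are between group means of log2(FPKM + 1), which understates the change of genes near 0, and limma was used for tests over 11664 genes with Benjamini-Hochberg adjustment. Spearman correlations across genes were 0.983 to 0.989 between mice of the same hispidulin group and 0.969 to 0.985 between a banded and a sham mouse. Ventricular muscle markers summed to 62977 to 72053 FPKM in the sham mice and 64378 to 69126 in the banded mice, and the 10 lymphocyte markers summed to no more than 2.71 FPKM in any of the 6. Hispidulin+Sham mouse 3 stood apart in its atrial markers, which summed to 1778 FPKM against 227 and 286 in the other sham mice and 696 to 1069 in the banded mice. The sum includes Nppa, which made up most of it in the other hispidulin mice. Nppa was at 967 FPKM in sham mouse 3, 204 and 264 in the other sham mice and 666 to 1047 in the banded mice. Myl7, the atrial light chain, was at 333 FPKM in sham mouse 3 and at 0.27 and 0.29 in the other sham mice, and at 5.76, 1.2 and 42.3 in the banded mice. The same sham mouse had the highest sum of red cell markers, 10297 FPKM against 3469 and 5053 in the other sham mice and 2251 to 5002 after AB. Whether atrial tissue was dissected with the ventricle is not stated. The part of the atrial and red cell markers in the results was not tested, and counts without Hispidulin+Sham mouse 3 are given beside the main ones.

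No gene reached an adjusted p under 0.05 between Hispidulin+AB and Hispidulin+Sham in the limma model of all 12 libraries, and 0 genes met the stricter pair of criteria, an adjusted p of at most 0.001 with an absolute log2 difference of at least 1. The smallest adjusted p was 0.0857, shared by Dbn1, Acta1 and Otulin. Over all tested genes 45.1% were higher and 54.9% lower after AB, while 51.4% were higher without Hispidulin+Sham mouse 3. An unadjusted p under 0.05 was found for 847 genes (7.26% of those tested), with 437 (3.75%) higher and 410 (3.52%) lower. After scaling by median of ratios it was found for 830 genes, and 511 of these were higher. The 3 banded mice lay beyond all 3 sham mice in 2438 genes (20.9%), upward in 1066 (9.14%) and downward in 1372 (11.8%). Large differences were mostly upward: 82 genes (0.703%) were at least 1 higher on the log2 scale and 8 (0.0686%) at least 1 lower. Without Hispidulin+Sham mouse 3 the count at an unadjusted p under 0.05 was 800, and again 0 genes passed adjustment. With another hispidulin mouse left out, that count at an unadjusted p was 456 (Hispidulin+AB mouse 3) to 726 (Hispidulin+AB mouse 2). With a sham mouse left out, the count without overlap set 3 banded mice against 2 sham mice. It was 4301 without Hispidulin+Sham mouse 3, 3796 without Hispidulin+Sham mouse 1 and 3235 without Hispidulin+Sham mouse 2.

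The replicate numbers of the labels were taken as pairs because same-numbered banded and sham mice deviated together, although they were different animals. The block was thus chosen from the data that it then tests. Each hispidulin pair joins animals of different series of animal numbers, which are described below. With the replicate number as a block, 17 genes (0.146%) had an adjusted p under 0.05, 16 higher and 1 lower after AB, and 0 met the stricter criteria. That block also pairs the DMSO mice, which did not deviate together. A block fitted to the 6 hispidulin-treated mice alone, chosen after seeing the data, gave 285 genes (2.44%) and 15 by the stricter criteria. The 285 included genes given below at larger adjusted p-values, such as Hspa1b (limma adjusted p = 0.000602), Xirp2 (0.000428) and Rcan1 (0.00159). The 17 genes were Acta1, Ankrd1, Ankrd2, Ankrd23, Fhl1, Hspb7, Mybpc2, Dbn1, Otulin, Col4a1, Col4a2, Tnfrsf12a, Fstl3, Uck2, Aqp8, H2-Q6 and, lower, Ano10. Their values by mouse follow, grouped by what the genes are known to do.

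**Figure D1:**
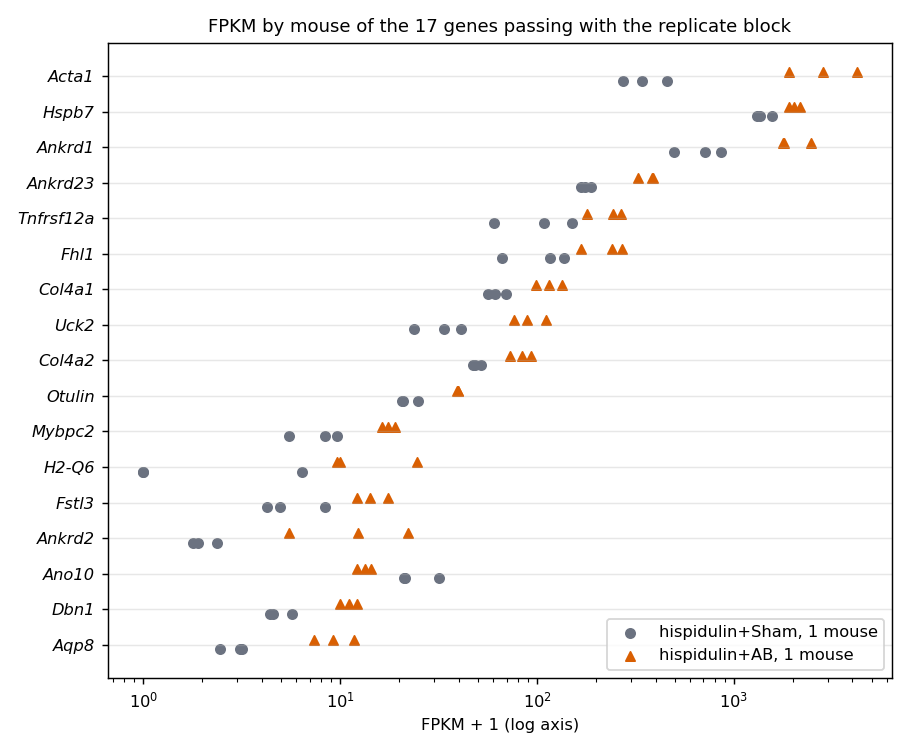
FPKM + 1 on a log axis for the 17 genes that passed with the replicate block, 1 point per mouse, grey circles for Hispidulin+Sham and orange triangles for Hispidulin+AB (3 mice each). In every gene the 3 banded mice lie on one side of the 3 sham mice, above them in 16 genes and below them in Ano10.

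Upstream windows of 4 of the leading genes, chosen after the search for motifs, are shown because they hold an element known from muscle genes. Each line gives the 250 bases ahead of the gene's start from RefSeq (mouse build GRCm38.p6), read on the gene's own strand. Capitals mark M-CAT elements (CATTCC on either strand) and, in Acta1 only, the CArG box, which is the binding element of serum response factor. The windows are Acta1 at chr8:123894776-123895025 on the minus strand, Ankrd1 at chr19:36119845-36120094 on the minus strand, Nppb at chr4:147985650-147985899 on the plus strand and Otulin at chr15:27630694-27630943 on the minus strand.
Acta1: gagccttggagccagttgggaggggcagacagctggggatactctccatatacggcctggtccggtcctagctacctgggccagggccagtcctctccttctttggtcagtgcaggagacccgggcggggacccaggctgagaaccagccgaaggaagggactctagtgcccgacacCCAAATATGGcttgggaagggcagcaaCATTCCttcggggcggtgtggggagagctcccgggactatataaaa
Ankrd1: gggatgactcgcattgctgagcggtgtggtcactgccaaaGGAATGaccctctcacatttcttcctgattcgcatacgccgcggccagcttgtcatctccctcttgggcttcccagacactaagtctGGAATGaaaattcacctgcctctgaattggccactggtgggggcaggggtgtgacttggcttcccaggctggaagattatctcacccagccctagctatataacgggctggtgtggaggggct
Nppb: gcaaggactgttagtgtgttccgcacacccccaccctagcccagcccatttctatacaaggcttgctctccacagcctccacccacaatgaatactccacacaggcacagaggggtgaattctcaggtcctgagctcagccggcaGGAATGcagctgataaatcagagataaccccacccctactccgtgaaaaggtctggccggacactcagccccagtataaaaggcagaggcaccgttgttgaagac
Otulin: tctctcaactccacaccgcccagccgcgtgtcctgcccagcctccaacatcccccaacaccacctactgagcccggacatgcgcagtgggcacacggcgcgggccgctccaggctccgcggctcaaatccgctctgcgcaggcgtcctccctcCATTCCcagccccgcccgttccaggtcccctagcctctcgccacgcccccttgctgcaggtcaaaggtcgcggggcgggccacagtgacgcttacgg

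In Acta1 the CArG box begins 73 bases and the M-CAT element 46 bases ahead of the start. Ankrd1 holds an M-CAT element at 210 and another at 123 bases ahead, Nppb holds 1 at 105 and Otulin 1 at 97. An M-CAT element was found in 6 of the 19 windows (31.6%) that the reference lists for the 17 genes, against 12.6% of the 32817 windows of this length in the reference. A CArG box was found in 2 of the 19 windows (those of Acta1 and Fhl1), against 1.47% of all windows. MEF2 sites were found in 0 of the 19, against 2.92%, heat shock elements in 3 (15.8%), against 12.8%, and TATAAA in 2 (10.5%), against 7.6%. These genes were picked for their difference, the windows overlap no measurement of binding, and a match or its absence describes these letters only. Col4a1 and Col4a2 are divergent neighbours, with starts 21 bases apart on chromosome 8.

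Acta1, the alpha actin of skeletal muscle that the fetal heart also makes, showed the largest log2 difference of the genes that passed with the block. By the ratio of mean FPKM, without 1 added, Ankrd2 stood higher, at 12.2 against 8.36 for Acta1. The FPKM of Acta1 was 456, 339 and 272 in the sham mice and 1893, 4206 and 2824 in the banded mice. The lowest banded mouse was thus far above the highest sham mouse, and the difference was 3.02 ± 0.43 (SE) on the log2 scale (limma adjusted p = 0.0857, and 0.0356 with the block). Reads of Acta1 and of the cardiac actin Actc1 can be shared between near-identical sequences, and how they were split is not given. Actc1 itself was at 8442 to 10414 FPKM in the sham mice and 9185 to 9943 in the banded mice, which overlapped.

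Of the 17 genes, 3 encode ankyrin repeat proteins of muscle that are known to respond to stretch. Ankrd1 (CARP) was at 496, 712 and 860 FPKM in the sham mice and 1790, 1778 and 2464 in the banded mice, a difference of 1.56 ± 0.31 (limma adjusted p = 0.190, and 0.0356 with the block). Ankrd2, its skeletal muscle relative, was at 0.78, 0.90 and 1.36 FPKM in the sham mice and 11.3, 4.50 and 21.1 in the banded mice, a difference of 2.52 ± 0.46 (0.164, and 0.0356 with the block). Ankrd23 was at 167, 174 and 187 FPKM in the sham mice and 324, 387 and 384 in the banded mice, a difference of 1.05 ± 0.17 (0.102, and 0.0342 with the block). None of the 3 overlapped between the groups. Ankrd1 was the most abundant of them by FPKM and Ankrd2 the scarcest, and Ankrd23 varied least within each group relative to its level.

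Further muscle genes passed with the block. Fhl1, a LIM protein of the sarcomere and a stretch sensor, was at 115, 65.8 and 136 FPKM in the sham mice and 239, 166 and 269 in the banded mice (1.12 ± 0.25). Hspb7, a small heat shock protein of heart muscle, was at 1308, 1352 and 1553 FPKM in the sham mice and 2014, 1912 and 2165 in the banded mice (0.53 ± 0.11). Mybpc2, the fast skeletal form of myosin binding protein C, was at 4.53, 8.62 and 7.35 FPKM in the sham mice and 16.6, 15.4 and 17.96 in the banded mice (1.21 ± 0.23). The groups did not overlap in any of them, and with the block the adjusted p from limma was 0.0356 for Fhl1, 0.0356 for Hspb7 and 0.0485 for Mybpc2.

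Dbn1 and Otulin shared the smallest adjusted p with Acta1. Dbn1 encodes drebrin, an actin-binding protein, and was at 3.41, 3.55 and 4.68 FPKM in the sham mice and 10.1, 8.93 and 11.2 in the banded mice. Otulin encodes a deubiquitinase that cuts linear ubiquitin chains, and was at 19.6, 19.9 and 23.8 FPKM in the sham mice and 38.7, 38.2 and 38.8 in the banded mice. The groups did not overlap in either gene, with differences of 1.19 ± 0.17 for Dbn1 and 0.85 ± 0.13 for Otulin (limma adjusted p = 0.0857 for each, and 0.0342 for each with the block). Dbn1 and Otulin each passed an adjusted p under 0.05 in 9 of the 23 alternative settings of the model, and Acta1 in 8.

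Basement membrane collagen was the matrix component that passed. Col4a1 was at 55.2, 59.96 and 68.8 FPKM in the sham mice and 97.7, 115 and 133 in the banded mice, a difference of 0.89 ± 0.22 (limma adjusted p = 0.340, and 0.0471 with the block). Its divergent neighbour Col4a2 was at 47.5, 46.1 and 50.9 FPKM in the sham mice and 72.2, 82.6 and 92.2 in the banded mice, a difference of 0.76 ± 0.17 (0.264, and 0.0461 with the block). The chains of type IV collagen assemble together, and both transcripts had the same order of mice after AB.

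Signalling and transport genes made up most of the remainder. Tnfrsf12a, the receptor of the cytokine TWEAK, was at 107, 59.6 and 150 FPKM in the sham mice and 243, 178 and 266 in the banded mice (1.18 ± 0.27). Fstl3, a secreted binder of activin, was at 3.95, 3.23 and 7.34 FPKM in the sham mice and 13.2, 11.2 and 16.6 in the banded mice (1.38 ± 0.28). Uck2, a uridine-cytidine kinase, was at 32.6, 22.8 and 40.1 FPKM in the sham mice and 87.7, 75.4 and 110 in the banded mice (1.51 ± 0.36). In all of these the replicate 2 mouse was the lowest of its group. Aqp8, a water channel, was at 1.46, 2.11 and 2.17 FPKM in the sham mice and 6.34, 10.7 and 8.22 in the banded mice (1.68 ± 0.28). Adjusted p-values from limma with the block lay between 0.0342 and 0.0487 in these 4 genes.

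H2-Q6, a class I histocompatibility gene, was listed at 0 FPKM in sham mice 1 and 2, at 5.44 in sham mouse 3, and at 8.99, 8.63 and 23.5 in the banded mice (limma adjusted p = 0.340, and 0.0342 with the block). Members of its family are nearly identical in sequence, so the value is uncertain, and 0 may be a failed estimate. Ano10, a membrane protein of the anoctamin family, was the gene that was lower: it was at 30.7, 20.3 and 20.1 FPKM in the sham mice and 13.4, 12.3 and 11.1 in the banded mice. The highest banded mouse was well below the lowest sham mouse, and the difference was -0.87 ± 0.17 (limma adjusted p = 0.178, and 0.0470 with the block).

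The list of hypertrophy and fetal gene markers held 19 tested genes, 13 of them higher after AB and 6 lower, with a median difference of 1.12 against -0.02 over all genes tested. An unadjusted p under 0.05 was found for 11 higher members, against 3.75% of all genes, and 1 lower one, against 3.52%. With the block 3 passed, against 0.146%, and in 12 the banded mice lay above every sham mouse, against 9.14%. Myh7, the slow beta myosin heavy chain, was at 43.5, 46.7 and 28.9 FPKM in the sham mice and 156, 281 and 175 in the banded mice. Every banded mouse was above every sham mouse, with a difference of 2.31 ± 0.62 (limma adjusted p = 0.438). Myh6, the fast adult form, was at 5678, 5394 and 4117 FPKM in the sham mice and 4248, 3901 and 4381 in the banded mice, which overlapped (-0.27 ± 0.16).

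The natriuretic peptides differed in how clearly the groups separated. Nppb, the B-type peptide, was at 352, 210 and 298 FPKM in the sham mice and 1103, 801 and 1250 in the banded mice. The groups did not overlap, and the difference was 1.88 ± 0.36 (limma adjusted p = 0.178, and 0.179 with the block). Nppa, the atrial peptide, was at 204, 264 and 967 FPKM in the sham mice and 666, 1047 and 850 in the banded mice. The high sham value was that of mouse 3, the hispidulin-treated mouse with the highest Myl7, and it lay above 2 of the 3 banded mice. The difference of Nppa over all 6 mice was 1.17 ± 0.81 (limma adjusted p = 0.852). It was 1.85 without Hispidulin+Sham mouse 3 and 0.73 without Hispidulin+Sham mouse 1.

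The Xin repeat proteins of the intercalated disc were higher, Xirp2 by 1.56 ± 0.26, from 40.2, 43.5 and 71.5 FPKM in the sham mice to 133, 124 and 201 in the banded mice (limma adjusted p = 0.102). Xirp1 was at 85.0, 41.7 and 99.0 FPKM in the sham mice and 242, 108 and 327 in the banded mice (1.52 ± 0.54). Rcan1, a calcineurin target and inhibitor, was at 95.7, 37.1 and 139 FPKM in the sham mice and 310, 159 and 351 in the banded mice (1.69 ± 0.51, limma adjusted p = 0.482, and 0.0752 with the block). In Xirp1 and Rcan1 the replicate 2 mouse was the lowest in both groups, and the groups did not overlap in either. Csrp3, muscle LIM protein, was at 1327 to 1662 FPKM in the sham mice and 1967 to 2362 in the banded mice (0.60 ± 0.12). Atp2a2, the calcium pump of the sarcoplasmic reticulum, was the member lower at an unadjusted p under 0.05: it was at 4033, 3790 and 3490 FPKM in the sham mice and 2903, 2882 and 2923 in the banded mice (-0.38 ± 0.14, limma adjusted p = 0.608).

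**Figure D2:**
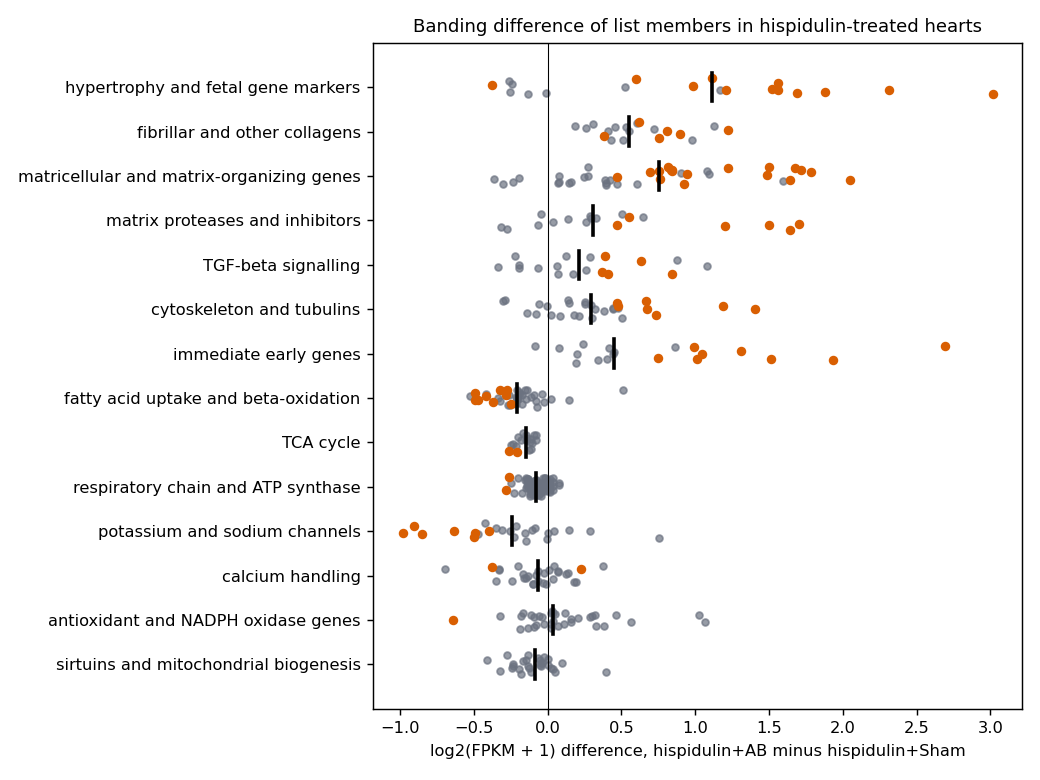
Difference in log2(FPKM + 1), Hispidulin+AB minus Hispidulin+Sham, of every tested member of 14 gene lists. Each point is a gene, orange where the unadjusted p was under 0.05 and grey otherwise, and the black bar is the list's median, which is 1.12 for hypertrophy and fetal gene markers and -0.21 for fatty acid genes.

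All 19 tested collagen genes were higher after AB, with a median of 0.55, and in 14 of them the banded mice lay above every sham mouse, where 9.14% of all genes did. Unadjusted p-values under 0.05 were found for 6, against 3.75% of all genes in that direction. The interstitial collagens were among the larger differences but varied between the banded mice. Col1a1 was at 12.6, 16.6 and 16.6 FPKM in the sham mice and 23.2, 42.8 and 29.3 in the banded mice (0.98). Col3a1 was at 14.1, 21.6 and 26.5 FPKM in the sham mice and 28.9, 72.2 and 43.4 in the banded mice (1.12). The groups did not overlap in either gene, and banded mouse 2 was the highest in both. Col8a1, a short-chain collagen, had the largest difference of the list, from 3.40, 4.72 and 4.69 FPKM in the sham mice to 7.37, 14.8 and 12.8 in the banded mice (1.22 ± 0.37, limma adjusted p = 0.482).

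Matricellular and matrix-organizing genes were higher in 37 of 41 cases, with a median of 0.75, and 18 of them had an unadjusted p under 0.05, where 3.75% of all genes were higher at that p. Cilp, cartilage intermediate layer protein, was at 1.92, 2.48 and 3.53 FPKM in the sham mice and 6.80, 18.9 and 11.2 in the banded mice (1.78 ± 0.72). Postn, periostin, a product of activated fibroblasts, was at 6.98, 8.28 and 12.8 FPKM in the sham mice and 16.8, 50.9 and 35.2 in the banded mice (1.68 ± 0.62). Both were apart from the sham range in every banded mouse, yet banded mouse 2 was far above banded mouse 1. Thbs4, thrombospondin 4, was at 1.38, 1.78 and 1.68 FPKM in the sham mice and 5.19, 8.58 and 7.27 in the banded mice (1.60 ± 0.73, limma adjusted p = 0.682). The adjusted p from limma was 0.639 for Cilp and 0.606 for Postn. Ccn2, connective tissue growth factor, was at 96.1, 64.0 and 105 FPKM in the sham mice and 216, 143 and 265 in the banded mice (1.21 ± 0.30).

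Of 18 matrix proteases and their inhibitors 14 were higher (median 0.31), 6 of them at an unadjusted p under 0.05 (3.75% over all genes). Timp1, an inhibitor of metalloproteinases, was at 4.26, 2.50 and 3.89 FPKM in the sham mice and 16.2, 7.54 and 17.7 in the banded mice (1.64 ± 0.48). Banded mouse 2 was the lowest of its group, the reverse of its place in Postn and Col3a1. Of 18 TGF-beta signalling genes 13 were higher (median 0.21) and 5 were higher at an unadjusted p under 0.05 (3.75% over all genes). Tgfb2, a ligand, was at 2.54, 2.63 and 2.17 FPKM in the sham mice and 4.12, 3.87 and 5.10 in the banded mice (0.63 ± 0.16, limma adjusted p = 0.425).

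Fibroblast markers had smaller differences: 8 of 10 were higher, with a median of 0.12 (-0.01 without banded mouse 2 and 0.25 without banded mouse 1), and their summed level was 975 to 1139 FPKM in the sham mice and 1002 to 1215 in the banded mice, with no defining marker at 0 in all mice. Endothelial markers had a median of 0.03 and sums of 431 to 513 FPKM in the sham mice against 493 to 509 after AB. The part of cell numbers in the matrix differences was not tested.

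Cytoskeletal genes were higher in 23 of 29 cases (median 0.29), 7 at an unadjusted p under 0.05 (3.75% over all genes) and 13 with the banded mice above every sham mouse (9.14%). Flnc, filamin C, was at 80.2, 44.6 and 109 FPKM in the sham mice and 217, 106 and 324 in the banded mice, which overlapped because of the replicate 2 mouse (1.41 ± 0.48). Tubb2a, a beta tubulin, was at 21.3, 19.9 and 23.4 FPKM in the sham mice and 39.9, 29.9 and 34.8 in the banded mice (0.66 ± 0.16, limma adjusted p = 0.340). Des, desmin, was at 1143, 918 and 927 FPKM in the sham mice and 1277, 1363 and 1488 in the banded mice (0.47 ± 0.15).

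The largest differences on the log2 scale were those of stress-induced genes, and these depended on the mouse. Hspa1b, an inducible heat shock protein of the HSP70 family, was at 11.0, 1.5 and 9.26 FPKM in the sham mice and 148, 26.8 and 285 in the banded mice, a difference of 3.97 ± 1.2 (limma adjusted p = 0.485, and 0.296 with the block). Its neighbour Hspa1a was at 24.5, 2.64 and 20.6 FPKM in the sham mice and 194, 43.5 and 337 in the banded mice, a difference of 3.50 ± 1.22 (0.544, and 0.298 with the block). The groups did not overlap, but the replicate 2 mouse was the lowest of its group in both genes and both groups. The genes are nearly identical, so reads cannot be assigned to one of them with certainty. Their upstream windows, chr17:34972157-34972406 for Hspa1a and chr17:34959239-34959488 for Hspa1b (both minus strand), are shown for that likeness, with capitals at the element recognised by heat shock factors (GAANNTTC or TTCNNGAA).
Hspa1a: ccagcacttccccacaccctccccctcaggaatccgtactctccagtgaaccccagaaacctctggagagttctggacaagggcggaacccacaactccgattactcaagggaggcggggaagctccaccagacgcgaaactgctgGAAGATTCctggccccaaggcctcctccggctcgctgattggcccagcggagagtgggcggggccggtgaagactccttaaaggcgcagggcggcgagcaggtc
Hspa1b: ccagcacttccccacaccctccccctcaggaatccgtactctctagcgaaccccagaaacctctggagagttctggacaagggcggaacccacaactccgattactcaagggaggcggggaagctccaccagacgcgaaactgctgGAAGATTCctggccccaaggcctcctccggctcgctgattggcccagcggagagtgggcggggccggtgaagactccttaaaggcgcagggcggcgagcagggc

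The windows are identical at 247 of 250 positions, and each holds the element 104 bases ahead of the start. The element occurs in 12.8% of all windows of this length in the reference.

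The 19 immediate early genes, transcription factors and regulators induced within minutes by many stimuli, were higher in 18 cases (median 0.45, and 0.68 without banded mouse 2), 8 at an unadjusted p under 0.05 (3.75% over all genes). Atf3 was at 11.6, 1.98 and 14.3 FPKM in the sham mice and 67.9, 20.6 and 104 in the banded mice (2.69 ± 0.81). Fos was at 0.44, 0.89 and 0.70 FPKM in the sham mice and 7.67, 1.30 and 11.8 in the banded mice (1.93 ± 0.70). Egr1 was at 3.60, 3.28 and 3.52 FPKM in the sham mice and 21.1, 3.19 and 21.2 in the banded mice (1.51 ± 0.64). Banded mice 1 and 3 were high in all of these genes, and banded mouse 2 lay below every sham mouse for Egr1. Thbs1, thrombospondin 1, had the same pattern, from 2.08, 0.84 and 2.44 FPKM in the sham mice to 16.8, 2.90 and 19.0 in the banded mice (2.05 ± 0.65). Adjusted p-values from limma were 0.482 for Atf3, 0.594 for Fos, 0.658 for Egr1 and 0.515 for Thbs1. The handling of each heart at harvest is not recorded in the labels, and its part was not tested.

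**Figure D3:**
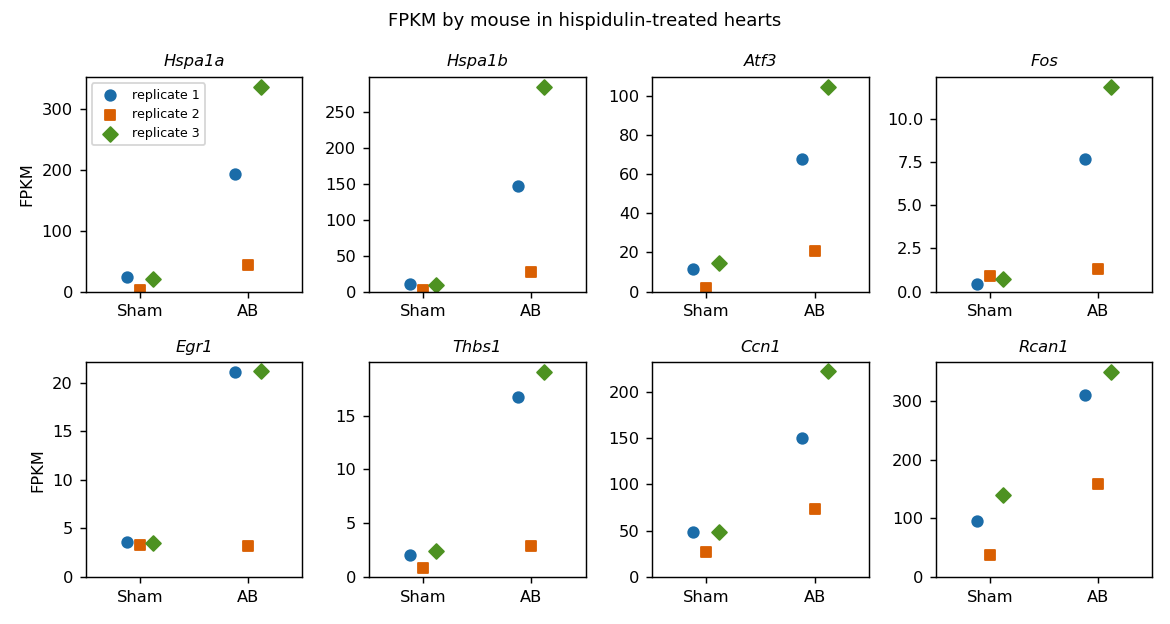
FPKM of 8 stress, early response and stretch genes in the 6 hispidulin-treated mice, Sham on the left and AB on the right of each panel, 1 point per mouse with colour and shape for the replicate number of the labels. The replicate 2 banded mouse (orange square) is the lowest banded mouse in every panel and lies at 3.19 FPKM for Egr1, below the sham mice.

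Calprotectin genes were also higher. S100a8 was at 5.94, 0.23 and 2.26 FPKM in the sham mice and 15.2, 12.4 and 9.33 in the banded mice (2.11 ± 0.68), and S100a9 at 5.91, 0.16 and 3.55 FPKM in the sham mice and 15.7, 15.7 and 8.69 in the banded mice (2.07 ± 0.76). The groups did not overlap in either gene, and the adjusted p from limma was 0.517 and 0.608. The 12 macrophage and myeloid markers, which include both, had a median of 0.21 (0.07 without Hispidulin+Sham mouse 2) and sums of 271 to 420 FPKM in the sham mice and 391 to 477 after AB.

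Of the genes that were lower after AB, Phkg1, the catalytic subunit of phosphorylase kinase in muscle, had the smallest adjusted p: it was at 9.87, 9.32 and 9.43 FPKM in the sham mice and 4.15, 4.82 and 2.74 in the banded mice. The highest banded mouse was far below the lowest sham mouse, and the difference was -1.13 ± 0.19 (limma adjusted p = 0.102, and 0.0556 with the block). Pfkfb1, a form of the enzyme that sets fructose 2,6-bisphosphate, was at 8.95, 9.74 and 7.15 FPKM in the sham mice and 3.56, 6.19 and 2.92 in the banded mice (-0.92 ± 0.31). Ces1d, a carboxylesterase and triglyceride hydrolase, was at 66.6, 81.4 and 62.6 FPKM in the sham mice and 42.3, 39.6 and 32.04 in the banded mice (-0.87 ± 0.37). The lowest value of the log2 difference among genes past an unadjusted p of 0.05 was that of Inmt, a methyltransferase, at 17.4, 23.8 and 16.5 FPKM in the sham mice and 8.36, 11.3 and 4.30 in the banded mice (-1.24 ± 0.50, limma adjusted p = 0.639). Cyp1a1, a target of the aryl hydrocarbon receptor, was at 2.2, 1.39 and 3.21 FPKM in the sham mice and 0.53, 0.61 and 0.09 in the banded mice (-1.19 ± 0.38).

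Potassium and sodium channel genes were lower in 19 of 24 cases (median -0.24), 7 of them at an unadjusted p under 0.05 against 3.52% of all genes in that direction. In 12 the banded mice lay below every sham mouse, against 11.8% of all genes. Kcnv2, a modifier subunit of voltage-gated channels, was at 3.39, 4.12 and 2.88 FPKM in the sham mice and 1.35, 1.36 and 1.04 in the banded mice (-0.98 ± 0.26). Kcnj3, a subunit of the muscarinic potassium channel, was at 11.2, 15.1 and 15.2 FPKM in the sham mice and 6.78, 7.49 and 6.39 in the banded mice (-0.90 ± 0.21). Scn4b, a beta subunit of sodium channels, was at 13.1, 10.5 and 8.71 FPKM in the sham mice and 5.09, 5.10 and 6.25 in the banded mice (-0.85 ± 0.36). The sets of 3 mice did not overlap in any of these, and the adjusted p from limma was 0.428, 0.310 and 0.660 in that order. Kcnip2, a subunit of the transient outward current, was at 89.8 to 121 FPKM in the sham mice and 74.4 to 86.0 in the banded mice (-0.39 ± 0.15).

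Fatty acid genes were lower in 37 of 40 cases, with a median of -0.21. Banded mice lay below every sham mouse in 24 of them, where 11.8% of all genes did, and 9 had an unadjusted p under 0.05, where 3.52% did. Hadhb, the beta subunit of the mitochondrial trifunctional protein, was at 1148, 1212 and 1186 FPKM in the sham mice and 996, 990.4 and 998 in the banded mice (-0.25 ± 0.11). Acaa2, the thiolase of the last step, was at 668, 695 and 652 FPKM in the sham mice and 524, 531 and 455 in the banded mice (-0.42 ± 0.13, limma adjusted p = 0.517). Acot2, a mitochondrial thioesterase, was at 57.5, 52.2 and 45.9 FPKM in the sham mice and 34.1, 42.3 and 33.6 in the banded mice (-0.49 ± 0.16). The differences were small and the groups of each gene did not overlap.

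The other mitochondrial lists were lower by less. All 19 TCA cycle genes were lower, with a median of -0.14 and a range of -0.26 to -0.08, 2 of them at an unadjusted p under 0.05 (3.52% over all genes in that direction). Of 80 respiratory chain and ATP synthase genes 66 were lower (median -0.08), and 2, Cox7a1 and Sdhc, had an unadjusted p under 0.05, a share below that over all genes. Their summed level was 74271 to 82034 FPKM in the sham mice and 66637, 74617 and 78047 in the banded mice, which overlapped. The median of the respiratory list was 0.00205 without banded mouse 3 and -0.13 without banded mouse 1. Sirtuins and genes of mitochondrial biogenesis were lower in 21 of 28 cases (median -0.09), and 0 had an unadjusted p under 0.05. Sirt1 was at 4.16, 4.85 and 6.74 FPKM in the sham mice and 4.42, 4.55 and 5.14 in the banded mice, which overlapped (-0.11). Antioxidant and NADPH oxidase genes had a median of 0.04 and 1 member at an unadjusted p under 0.05, Gsta3, a glutathione transferase (-0.64 ± 0.24).

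**Figure D4:**
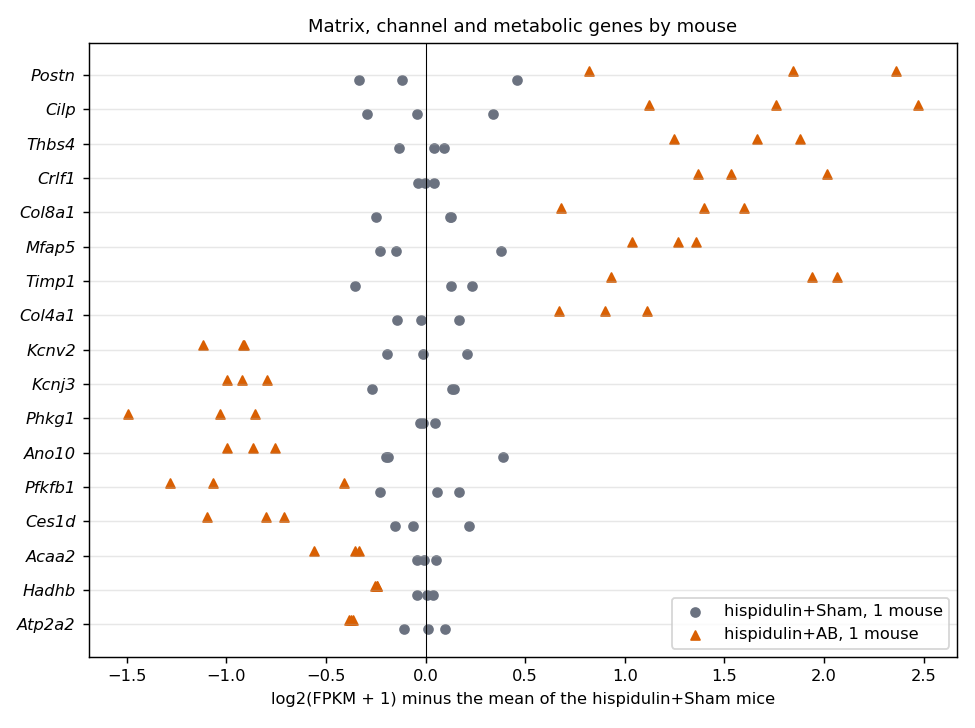
Per-mouse log2(FPKM + 1) of 17 matrix, channel and metabolic genes, less the mean of the 3 Hispidulin+Sham mice, with grey circles for Hispidulin+Sham and orange triangles for Hispidulin+AB. Matrix genes in the upper rows lie above 0 in every banded mouse, with a wide spread in Postn and Cilp, and channel and metabolic genes in the lower rows lie below 0 with smaller differences such as -0.25 in Hadhb.

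The remaining pathway lists were glucose use (14 higher and 18 lower, median -0.05), calcium handling (11 and 19, -0.07), endoplasmic reticulum chaperones and the integrated stress response (10 and 18, -0.07), cell cycle genes (9 and 8, median 0.003) and clock genes (6 and 12, -0.16). Unadjusted p-values under 0.05 were found for 1 higher and 2 lower genes in glucose use, 1 and 1 in calcium handling, 3 higher in the chaperone list, 1 higher among clock genes and 0 in the cell cycle list, where 3.75% of all genes were higher and 3.52% lower at that p. Among the other marker lists, the median was -0.04 over 8 atrial markers, -0.0001 over 10 of smooth muscle, -0.13 over 4 of adipocytes, -0.77 over 7 of red cells, 0.35 over 5 of mesothelium, -0.12 over 6 of Schwann cells and nerves and -0.08 over 3 of skeletal muscle. All 7 red cell markers were lower after AB, with the groups overlapping in each, and all 5 mesothelial markers were higher (45.1% of all genes were), 2 of them without overlap (9.14%). Without Hispidulin+Sham mouse 3 the atrial median was 1.35 and the red cell median -0.32. With single hispidulin mice left out the mesothelial median lay between 0.16 and 0.77, and the median of skeletal muscle markers between -0.32 and 0.02. For Schwann cell and nerve markers it lay between -0.22 and -0.03, for smooth muscle -0.05 and 0.09, and for endothelium -0.002 and 0.07. The median lay between -0.10 and -0.007 for calcium handling, -0.15 and -0.007 for the chaperone list, -0.06 and -0.02 for glucose use, -0.05 and 0.0006 for cell cycle genes, -0.29 and -0.02 for adipocyte markers and 0.009 and 0.11 for antioxidant genes.

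The animal numbers in the column names fall into 2 series besides 1 lone number, and no label says whether a series is a batch. In the lower-numbered series, Hispidulin+AB mouse 3 stood against Hispidulin+Sham mice 1 and 2, and in the higher-numbered one Hispidulin+AB mice 1 and 2 against Hispidulin+Sham mouse 3, so neither gives a test. The median of the hypertrophy list was 1.68 in the former and 0.38 in the latter, that of the matricellular list 0.86 and 0.45, that of collagens 0.69 and 0.45, and that of fatty acid genes -0.30 and -0.13. These 4 kept their direction, while the median turned for respiratory chain genes (-0.22 and 0.02), glucose use (-0.07 and 0.01), calcium handling (0.03 and -0.08) and the markers of atrium (1.74 and -1.82), ventricular cardiomyocytes (-0.14 and 0.13), smooth muscle (-0.08 and 0.25) and endothelium (0.09 and -0.08). Acta1 differed by 2.84 and 3.37 in the same order, Dbn1 by 1.45 and 0.88, Otulin by 0.94 and 0.67, Nppb by 2.2 and 1.65, and Phkg1 by -1.50 and -0.93. Nppa differed by 1.87 in the lower-numbered series and by -0.21 in the other, where the sham mouse was the one with high atrial markers.

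The same contrast in the mice given DMSO used 6 other animals but shared the estimate of the spread, and it gave 608 genes (5.21%) with a limma adjusted p under 0.05, 292 higher and 316 lower after AB. That count rested on the libraries used: it was 11 with the 6 DMSO mice alone and, with single libraries left out, between 91 without DMSO+Sham mouse 1 and 1053 without DMSO+Sham mouse 2. In the hispidulin-treated hearts 599 of these 608 (98.5%) differed in the same direction, against 70.5% of all genes. Of the 608, 315 (51.8%) also had an unadjusted p under 0.05 there, against 7.26% of all genes. The shared spread of a gene enters both p-values. Banded and sham mice did not overlap, in the same direction, in 447 (73.5%), where 20.9% of all genes did not overlap. The median difference of the 608 was 0.73 with DMSO and 0.35 with hispidulin, and 599 were smaller in size with hispidulin, but the genes were picked for a large difference with DMSO, which makes that side larger by selection. Taken the other way, of the 847 genes at an unadjusted p under 0.05 with hispidulin, 810 (95.6%) differed in the same direction with DMSO and 315 (37.2%) had an adjusted p under 0.05 there. Their median was 0.43 with hispidulin and 0.49 with DMSO, and 353 (41.7%) were smaller with DMSO.

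**Figure D5:**
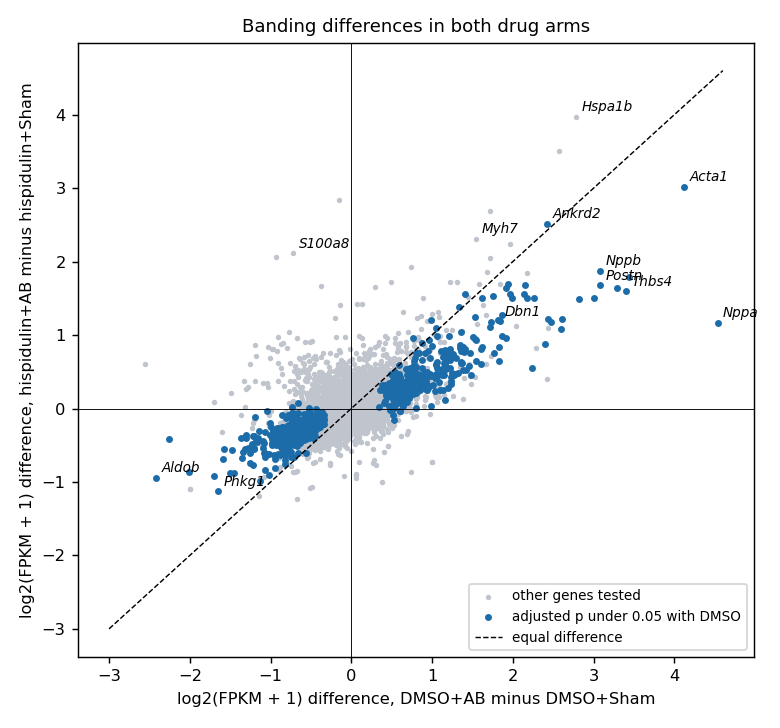
Difference in log2(FPKM + 1) between AB and Sham for 11664 genes, with DMSO on the horizontal axis and hispidulin on the vertical axis. Blue points are the 608 genes with an adjusted p under 0.05 with DMSO, grey points the other genes, and the dashed line marks equal differences. Of the blue points 599 have the same sign on both axes.

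Whether banding acted differently with the drug was tested by the interaction of hispidulin and AB. No gene had an adjusted p under 0.05 for it in limma, the smallest adjusted p was 0.9995, and 289 genes (2.48%) had an unadjusted p under 0.05. Acta1 differed by 3.02 with hispidulin and 4.12 with DMSO, Nppb by 1.88 and 3.08, Ankrd1 by 1.56 and 1.96, and Myh7 by 2.31 and 1.55. Dbn1 differed by 1.19 and 1.84, Otulin by 0.85 and 0.99, Col4a1 by 0.89 and 0.87, and Phkg1 by -1.13 and -1.65. Among the list medians, collagens stood at 0.55 with hispidulin and 1.22 with DMSO, matricellular genes at 0.75 and 1.14, fatty acid genes at -0.21 and -0.45, and immediate early genes at 0.45 and 0.48. The 5 genes of smallest interaction p were gene 102638435 (0.91 with hispidulin and -0.51 with DMSO), Plpp2, a lipid phosphatase (0.01 and 0.80), Cd200, a membrane glycoprotein (-0.09 and 0.52), Ppp1r3c, a glycogen-targeting subunit (0.38 and 1.23), and Gm3558 (0.69 and -0.37). H2-Q6 differed by 2.84 and -0.15, S100a8 by 2.11 and -0.72, and S100a9 by 2.07 and -0.93. A p that misses the threshold does not show that the responses were alike. The median spread between mice of a group was 0.13 in the hispidulin groups and 0.209 in the DMSO groups (SD of log2 values), and the model used 1 common spread per gene.

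The number of genes called moved with the mice that entered the model. With the 6 hispidulin-treated mice alone, 49 genes (0.42%) had a limma adjusted p under 0.05, 39 higher and 10 lower, while the 6 DMSO mice alone gave 11 in place of 608. Of the 49 genes, 11 were among the 17 that passed with the block. When each library was weighted by its quality, 209 genes (1.79%) passed. All 49 genes of the model with 6 mice differed in the same direction with DMSO, where 70.5% of all genes did. In the limma model of all 12 libraries, 40 of them had an adjusted p under 0.05 with DMSO, against 5.21% of all genes. The 49 genes included 5 of the 19 hypertrophy markers, 4 of 41 matricellular genes, 2 of 19 collagens and 2 of 24 channels. Acta1, Nppb, Myh7, Ankrd1, Ankrd2, Ankrd23, Xirp2, Dbn1, Otulin, Thbs4, Col4a1 and Col4a2 were among the higher genes, and Phkg1, Kcnv2, Kcnj3 and Ces1d among the lower ones.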

How the data were processed

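The authors deposited FPKM (reads per length of transcript and per size of library) of 18079 genes in each of 12 libraries, rounded to 0.01, from single-end reads of 50 bases of polyadenylated RNA. The submitters' processing notes name HISAT2 2.0.4, Bowtie2 2.2.5, RSEM 1.2.12 and DESeq2 1.4.5, and the genome build of the values is not given in the sources used here. Symbols were found for 17947 genes in the RefSeq table. Steps between low values lay within 0.1 of a whole number in 18.8% of cases against 20% if evenly spread, so depth could not be recovered. Summed FPKM was 535235 to 567027 per library.

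Genes reaching 1 FPKM in 3 or more of the 12 libraries (11664) were analysed as log2(FPKM + 1). A group mean was fitted for each of the 4 groups (8 residual degrees of freedom) in limma 3.58.1 (R 4.3.3) with a variance trend, and contrasts were tested two-sided with Benjamini-Hochberg adjustment. The model was tested on simulated data. Replicates are different mice. Residuals of same-numbered banded and sham mice correlated by 0.147, 0.197 and 0.228 with hispidulin and by -0.0239, -0.0443 and -0.198 with DMSO. Every hispidulin pair exceeded 0.1, so the replicate number was treated as pairing there. This comes from the data and not from the design.

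Lists, members and tests were chosen with earlier results of these data known. Named genes were those that passed with the block, the 15 highest and 15 lowest differences at an unadjusted p under 0.05 without overlap, the hypertrophy list, list members at an unadjusted p under 0.05 (or else the 2 of largest difference), the 5 smallest interaction p-values, the 10 highest and 10 lowest with DMSO, and cell type markers. Not every such gene is named. Col1a1, Col3a1 and Sirt1 were named after their values were seen. Alternatives were 0.1 added in place of 1, no filter or a minimum of 5 FPKM, quantile normalization, scaling by median of ratios, library weights, no trend, only the libraries compared, the replicate block, a covariate for the series of animal numbers, and leaving out each library. Motifs were searched with Python 3.11.15.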

Additional observations from a re-analysis of the deposited data

How the results depend on the processing

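The number of genes with an adjusted p under 0.05 between Hispidulin+AB and Hispidulin+Sham, 0 as reported, was 2 with no filter, 2 with median-of-ratios scaling, 3 with quantile normalization, 209 with library weights, 49 with only the libraries compared and 17 with the replicate block. The block combined with only the libraries compared, chosen after seeing the data, gave 285, and 15 by the stricter criteria. Leaving out single libraries gave 0 to 9, with 9 without DMSO+AB mouse 1 and 7 without DMSO+Sham mouse 2. Genes at an unadjusted p under 0.05 (847) numbered 2311 with library weights, 1863 with only the libraries compared, 2076 with that and the block, and 456 to 1116 with a library left out. The count without overlap (2438) was 3235 to 4301 with a hispidulin mouse left out and takes no fit. The DMSO count (608) was 383 with no filter, 1423 with library weights, 11 with only the libraries compared, 142 with the series covariate, and 91 (without DMSO+Sham mouse 1) to 1053 (without DMSO+Sham mouse 2) with a library left out. The interaction count was 0 to 3 with a library left out, 3 without DMSO+AB mouse 1. Only the libraries compared could not be run for it. Actc1 (-0.01) changed sign with median-of-ratios scaling (0), quantile normalization (0.04), the series covariate (0.17) and single mice left out (range -0.11 to 0.04), and Plpp2 (0.01) with quantile normalization (0) and mice left out (-0.03). Beside the 17 genes, which included 3 hypertrophy markers, 2 collagens and 1 cytoskeletal gene, the replicate block gave 640 DMSO genes, 875 at an unadjusted p under 0.05 with hispidulin and 0 for the interaction. The cause of these shifts was not tested. With a mouse left out, the median was 0.83 to 1.33 for hypertrophy markers, 0.38 to 0.74 for collagens, 0.63 to 0.81 for matricellular genes and -0.24 to -0.17 for fatty acid genes. Unknown depth leaves low FPKM without a counting error.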
